A study of Mus musculus with 2 samples.

Results

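The 8 genes described here make cholesterol or regulate its synthesis and uptake in animal cells: the synthesis enzymes Hmgcs1, Sqle, Fdft1, Lss and Dhcr7, the transcription factors Srebf1 and Srebf2, and the regulator Insig1. They were chosen by symbol from 55536 mouse genes of the deposited GENCODE M21 gene table, of which 22028 are protein-coding, and all 8 were found. The samples were 2 libraries of polyadenylated RNA from G1E-ER4, a mouse erythroid line that lacks its own Gata1 function and regains it through a GATA1 fusion protein activated by estradiol. Both libraries came from cells given 17beta-estradiol at 10 nM over 24 h, and they formed 1 group, numbered replicates 1 and 2 in the labels. No untreated or parental sample was analysed here, so the values are levels in treated cells and not responses. Both libraries carry the same biosample record, and the labels do not state separate cultures; their spread may thus be technical. The cells are 1 immortalised line, and the fusion protein is present in both libraries.

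Cholesterol is built from acetyl-CoA through the mevalonate pathway to squalene, which is closed into lanosterol and trimmed to cholesterol. When sterols are scarce, the membrane-bound SREBP proteins encoded by Srebf1 and Srebf2 are carried from the endoplasmic reticulum to the Golgi, cut, and released to activate the genes of synthesis and uptake. The INSIG proteins hold them back when sterols are plentiful. SREBP-2 acts mainly on cholesterol genes, while the SREBP-1 forms act more on fatty acid genes, and red cell membranes are rich in cholesterol.

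Several values below turn on which transcript model received the fragments, so the stretches that tell the models apart are shown first, from GENCODE M21 transcripts on mm10. Srebf1 has 2 annotated coding starts. In the 2 following stretches the capitals are the coding bases of the first exon, and the lower-case bases are the start of the second exon, which both share. Srebf1-201 begins on chromosome 11 at the upstream start (capitals at chr11:60220453-60220543, minus strand) and Srebf1-207 at the downstream start (chr11:60210336-60210354, minus strand).
Srebf1-201: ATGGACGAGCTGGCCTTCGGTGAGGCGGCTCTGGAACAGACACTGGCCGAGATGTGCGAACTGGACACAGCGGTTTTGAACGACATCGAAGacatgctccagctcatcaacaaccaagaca
Srebf1-207: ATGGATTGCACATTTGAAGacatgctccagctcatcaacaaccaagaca
The upstream start, used by the form known as SREBP-1a, adds 91 coding bases, and the downstream start, used by SREBP-1c, adds 19. The difference of 72 bases is 24 codons, so both run on in the same frame.

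Srebf2 has 1 full-length coding model that carries nearly all of the complete coding signal, Srebf2-201, and its first coding exon is shown next in capitals (chr15:82147403-82147490, plus strand).
Srebf2-201: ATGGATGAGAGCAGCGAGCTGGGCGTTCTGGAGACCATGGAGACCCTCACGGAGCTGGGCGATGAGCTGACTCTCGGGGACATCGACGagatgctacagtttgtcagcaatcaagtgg
The start codon annotated for the shorter model Srebf2-202 lies 90 coding bases, or 30 codons, into this reading frame. Srebf2-202 and Srebf2-204 both begin in an alternative first exon, 523 bases beyond the first exon of Srebf2-201. They then share exon 2 and part at its end. In the next pair the lower-case bases are shared, and the capitals are what each model reads afterwards. Srebf2-202 continues into the next exon (chr15:82171102-82171267), of which the first 25 bases are shown, and Srebf2-204 into the intron (chr15:82170155-82170161).
Srebf2-202: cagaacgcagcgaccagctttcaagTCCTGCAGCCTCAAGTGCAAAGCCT
Srebf2-204: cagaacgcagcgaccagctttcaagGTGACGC
Only 7 bases of Srebf2-204 lie outside Srebf2-202, and 178 bases of Srebf2-202 lie outside Srebf2-204. All 740 bases of another short model, Srebf2-206, lie inside Srebf2-201.

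The promoter of Hmgcs1 is shown because it held the only exact match to a sterol regulatory element among the genes' windows. The stretch is the 250 bases before the RefSeq start (GRCm38.p6, chr13:119690101-119690350, plus strand), with the match in capitals.
Hmgcs1 promoter: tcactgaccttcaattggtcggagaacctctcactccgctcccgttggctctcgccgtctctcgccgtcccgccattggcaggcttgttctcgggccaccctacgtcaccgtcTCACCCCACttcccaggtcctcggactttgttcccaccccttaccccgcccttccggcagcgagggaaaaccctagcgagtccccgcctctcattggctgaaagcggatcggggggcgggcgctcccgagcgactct
The motif TCACCCCAC, searched on both strands, begins 137 bases before the RefSeq start and was in 0.496% of 32851 RefSeq windows of the same length. It contains the shorter core CACCCCAC, found in 2.58% of windows, and CACCCNAC, found in 4.42%, and among the genes described here these were also in Hmgcs1 alone. Windows were found for 6 of the 8 genes, 10 windows in all, and not for Sqle and Fdft1. A CCAAT box was in 7 of the 10 windows and in 33.8% of all windows. A GGGCGG box was in 8 of the 10 and in 32.7% of all windows. Each of the 6 genes held both boxes in at least 1 window. The E-box CACGTG was in a window of Dhcr7 and of Insig1 and in 6.02% of all windows. No window of the 6 genes held the GATA motifs AGATAA or TGATAA, which were in 9.99% and 7.94% of windows. These are matches of letters in a window and no binding was measured.

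The library of replicate 1 held 71485620 expected counts and that of replicate 2 held 14121747, a ratio of 5.06. The 8 genes took 0.309% of the counts of replicate 1 and 0.394% of those of replicate 2. All 9 erythroid markers were detected, and none of 18 markers of myeloid, mast, lymphoid, liver and fibroblast cells was, with 8 of the 18 at 0 in both libraries and the highest at 0.55 TPM. TPM is a transcript level corrected for length and scaled to a fixed library total, and a gene counted as detected when both libraries gave at least 1 TPM. On that rule 33.1% of protein-coding genes were detected, and 7 of the 8 genes were. Their order by mean level was Srebf2, Srebf1, Lss, Sqle, Fdft1, Hmgcs1, Dhcr7 and Insig1. Neighbours whose ranges over both libraries overlapped were Lss with Sqle and Hmgcs1 with Dhcr7, so these did not differ beyond their spread.

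**Figure D1:**
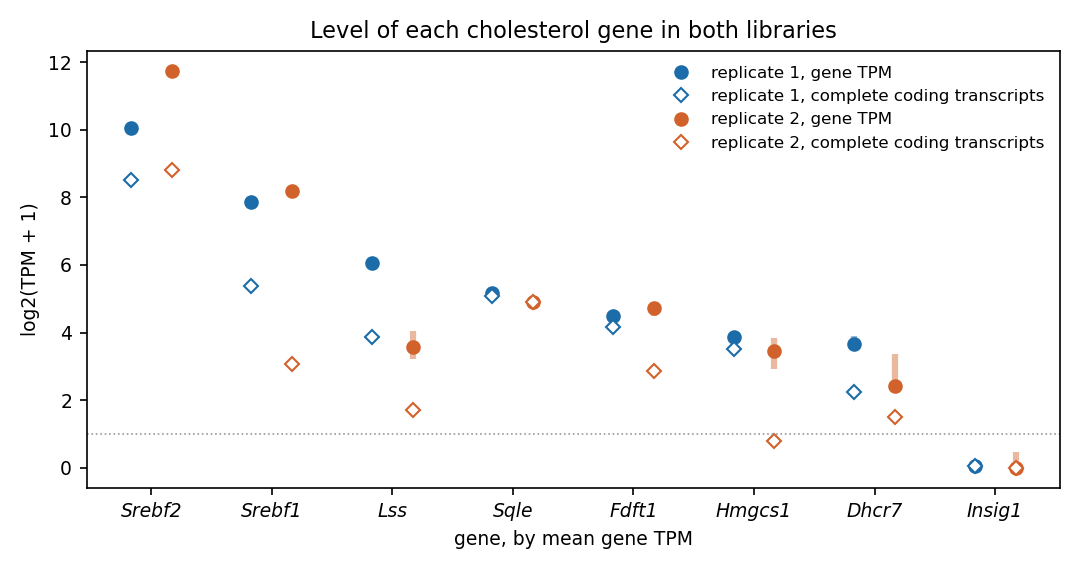
Level of each gene as log2(TPM + 1), replicate 1 in blue and replicate 2 in orange; filled circles are the gene TPM, bars the deposited interval of the posterior estimate, open diamonds the TPM of complete coding transcripts only, and the dotted line marks 1 TPM. Srebf2 stood highest at 1051 and 3432 TPM and Insig1 lay at 0.04 and 0 TPM; the diamonds lie far below the circles for Srebf2, Srebf1 and Lss and on them for Sqle.

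Srebf2 (ENSMUSG00000022463.8, chr15:82147181-82205379) was measured at 1051 TPM in replicate 1 and at 3432 TPM in replicate 2 (mean 2242 ± 1684 TPM, SD, n = 2). These were the 99.5th and 99.8th percentiles of protein-coding genes. The deposited interval ran from 1026 to 1052 TPM in replicate 1. In replicate 2 it ran from 3163 to 3276 TPM and did not hold the value itself; the interval belongs to the posterior estimate, which was 3221 TPM. Srebf1 (ENSMUSG00000020538.15, chr11:60199089-60222581) stood at 230.8 TPM in replicate 1 and at 292.8 TPM in replicate 2 (mean 261.8 ± 43.8 TPM, SD, n = 2). In gene TPM both SREBP genes lay above the 5 enzymes in both libraries, and the highest enzyme value was 65.7 TPM. The ratio of Srebf2 to Srebf1 was 4.55 in replicate 1 against 11.7 in replicate 2 (mean 8.14 ± 5.07, SD, n = 2). It was 2.03 and 2.67 in the M4 tables of an earlier annotation release. These hold 1 of the 7 M21 models of Srebf2 but all 12 of Srebf1. Over complete coding transcripts the ratio was 8.93 and 60.0. There Srebf1 was below Sqle in replicate 2, at 7.43 against 29.2 TPM.

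Insig1 (ENSMUSG00000045294.11, chr5:28071363-28078662), whose protein retains the SREBP complex in the endoplasmic reticulum and is itself a classical SREBP target, had 0.04 TPM in replicate 1 and 0 in replicate 2. The first value stood for 8 expected counts, with an exact Poisson interval of 3.45 to 15.8 at 95%. A count of 0 in replicate 2 allows up to 3 counts, or 0.212 CPM (expected counts scaled to a fixed library total). Both libraries were therefore at or near the floor, and no fold is given. Its relative Insig2, from a list of SREBP control genes, was at 19.6 TPM and 2.6 TPM, above Insig1 in both libraries. Over complete coding transcripts Insig2 was at 1.44 TPM and 1.31 TPM, also above Insig1.

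In gene TPM the enzymes lay between 4.34 and 65.7 TPM, below both SREBP genes. Hmgcs1 (ENSMUSG00000093930.2, chr13:119690379-119708260), which condenses acetyl-CoA and acetoacetyl-CoA at the entry of the mevalonate pathway, was at 13.7 TPM in the first library and 10.1 TPM in the second (mean 11.9 ± 2.57 TPM, SD, n = 2). Fdft1 (ENSMUSG00000021273.10, chr14:63145150-63179578), the squalene synthase that commits farnesyl diphosphate to sterols, was at 21.6 TPM and 25.7 TPM (mean 23.6 ± 2.87 TPM, SD, n = 2). Sqle (ENSMUSG00000022351.14, chr15:59315077-59331192), the epoxidase that oxidises squalene, was at 34.7 TPM and 29.2 TPM (mean 31.97 ± 3.86 TPM, SD, n = 2). For these 3 genes the libraries lay within 2-fold of each other in TPM.

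Lss (ENSMUSG00000033105.12, chr10:76531588-76557138), which closes the ring system of lanosterol, was at 65.7 TPM in replicate 1 but 11.02 TPM in replicate 2, a 5.96-fold lower value (mean 38.4 ± 38.7 TPM, SD, n = 2). Dhcr7 (ENSMUSG00000058454.15, chr7:143823145-143848410), which catalyses the last reduction to cholesterol in one branch, was at 11.7 TPM and 4.34 TPM, 2.69-fold lower (mean 8.015 ± 5.2 TPM, SD, n = 2). Its deposited interval in replicate 2, 4.52 to 9.43 TPM, lay above the value, and the posterior estimate there was 6.85 TPM. The median of the 5 enzymes was 21.6 TPM in replicate 1 and 11.02 TPM in replicate 2, and Srebf2 was 48.7 times and 311 times that level. This multiple was 41.9 and 110 in M4, 60 and 145 in the table made from the reads, and 26.3 and 198 over complete coding transcripts.

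A gene was called apart between the libraries where its TPM differed over 2-fold and its mean expected count was at least 50. Of 9029 genes compared, 15.5% were higher in replicate 2 and 35.4% were lower. Of the 7 cholesterol genes compared, Srebf2 was higher at 3.27-fold, Lss and Dhcr7 were lower, and Srebf1, Sqle, Fdft1 and Hmgcs1 were within 2-fold. Which genes were called changed with the table and scaling. Dhcr7 was within 2-fold in M4, at 9.25 and 5.61 TPM, with posterior means, and with the counts scaled by edgeR's TMM or DESeq2's size factors. Hmgcs1 was over 2-fold lower in M4, in CPM (counts scaled to library total) and with TMM and DESeq2 size factors, at log2 ratios of -2.76, -2.87, -2.56 and -2.72. The median log2 ratio of replicate 2 over replicate 1, on TPM + 1, was -0.24 over these 7 genes and -0.32 over all genes compared. With the all-gene median set to 0, Srebf2 was at 2.03, Lss at -2.15, Dhcr7 at -0.93 and Sqle at 0.08 on the log2 scale. The split of all calls was 1401 higher and 3199 lower. It was 873 and 3731 in CPM, 2134 and 2473 with the median set to 0, and 962 and 3840 over complete coding transcripts. It was 79 and 6874 in the table made from the reads, and 1346 and 1957 once that table was rescaled to equal totals over protein-coding genes. The libraries have no replicate check beyond each other, so no p-value is given.

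CPM, which takes no account of transcript length, gave other differences for the same genes. Srebf2 was at 2303 CPM in replicate 1 and 3333 CPM in replicate 2, 1.45-fold higher (exact binomial interval 1.43 to 1.46, counting error only) beside 3.27-fold in TPM. Hmgcs1 was at 35.4 CPM and 3.97 CPM, 8.92-fold lower (6.85 to 11.8) beside 1.36-fold lower in TPM. Its 56 expected counts in replicate 2 stood against 2530 in replicate 1. Fdft1 was at 64.2 CPM and 30.5 CPM, 2.1-fold lower, while in TPM it was 1.19-fold higher. Sqle kept near values on both scales, 1.41-fold lower in CPM and 1.19-fold lower in TPM. The average effective length that the deposited tables assign to a gene moved along: it was 5.66 times longer in replicate 1 than in replicate 2 for Hmgcs1, 2.15 times for Fdft1, 1.95 times for Srebf2 and 1.02 times for Sqle.

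**Figure D2:**
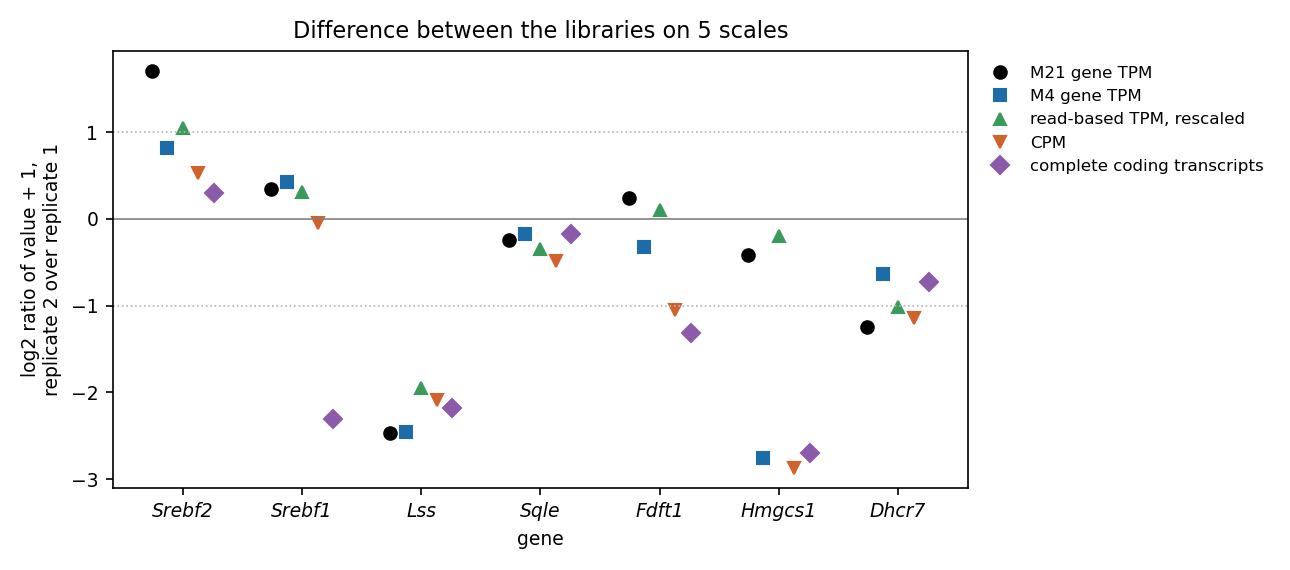
Difference between the libraries for the 7 genes compared, as the log2 ratio of value + 1, replicate 2 over replicate 1, on 5 scales; the dotted lines mark a 2-fold difference. Lss lies below 0 on every scale shown and Srebf2 above it, while Fdft1 lies on both sides and Hmgcs1 ranges from -0.2 to -2.87.

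A gene's effective length in these tables is the mean over its transcript models, weighted by their levels. The models were grouped as complete coding (protein-coding with both ends annotated), partial coding (protein-coding with an end not found) and other (retained intron, processed transcript or decay target). Over the 7297 detected protein-coding genes the median share of gene TPM on complete coding models was 76.6% in replicate 1 and 73.4% in replicate 2. Among the 6798 of these with 2 or more transcripts, as all 8 cholesterol genes have, it was 70.5% and 63.5%, and 39.4% and 44.6% of them were under 50%. Sqle stood at 95.3% and 100%, nearly all on Sqle-201 with 33.1 TPM and 29.2 TPM. The share was 34.4% and 13.0% for Srebf2, 17.5% and 2.54% for Srebf1, and 20.9% and 20.4% for Lss. It was 75.7% and 7.46% for Hmgcs1, and 78.9% and 24.5% for Fdft1. Dhcr7 was at 32.1% and 43.1%. In expected counts the complete models held more: 78.3% and 57.9% for Srebf2, and 97.7% and 53.6% for Hmgcs1.

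**Figure D3:**
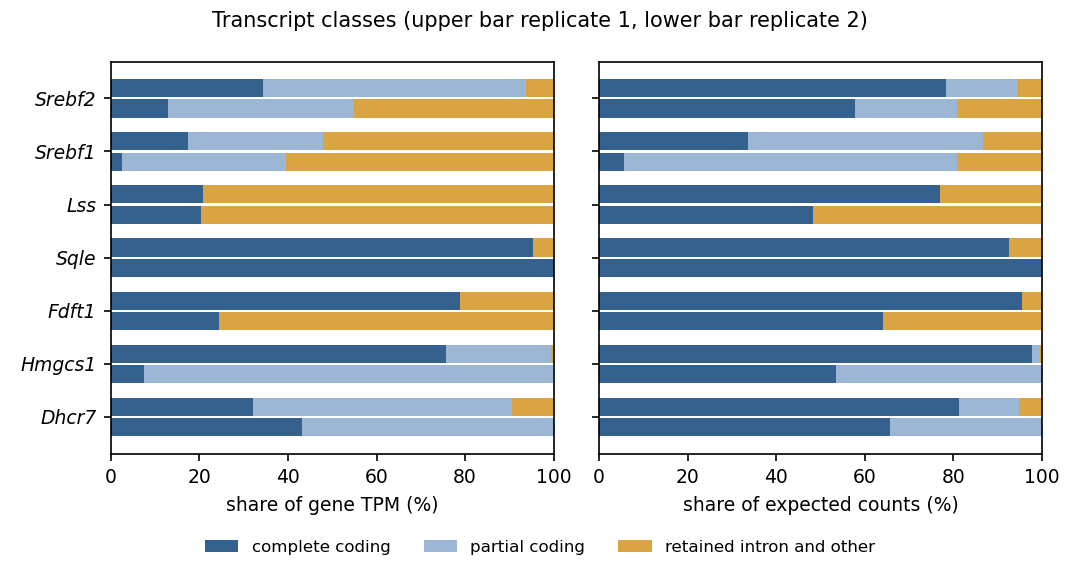
Share of each gene's TPM (left) and expected counts (right), in percent, on complete coding, partial coding and other models, with replicate 1 above replicate 2 for each gene. Complete coding models hold a larger share of counts than of TPM in both libraries for every gene drawn but Sqle, which is nearly all complete coding on both scales.

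For Srebf2, the full-length Srebf2-201 was at 360.5 TPM in replicate 1 against 445.3 TPM in replicate 2. The short models differed more. Srebf2-202 was at 514 TPM and 65.6 TPM, and Srebf2-204, whose only bases outside it are the 7 capitals shown above, was at 2.46 TPM and 1528 TPM. Srebf2-206 was at 110.3 TPM and 1369 TPM. The 3 short models together made up 59.6% of the gene's TPM in replicate 1 and 86.3% in replicate 2, on 26985 and 19258 expected counts. In the table made from the reads, where replicate 2 was lower for 6874 of 9026 genes, Srebf2-202 and Srebf2-204 were at 232 and 221 TPM in replicate 2 and Srebf2-206 at 230 TPM. There the split between Srebf2-202 and Srebf2-204 in replicate 2 was near even, whereas the main table gave nearly all of it to Srebf2-204. Whether molecules end at these positions was not tested. The microRNA gene Mir33, known to restrain cholesterol export, lies in an intron of Srebf2 (chr15:82197787-82199634) that is inside the span of Srebf2-206.

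**Figure D4:**
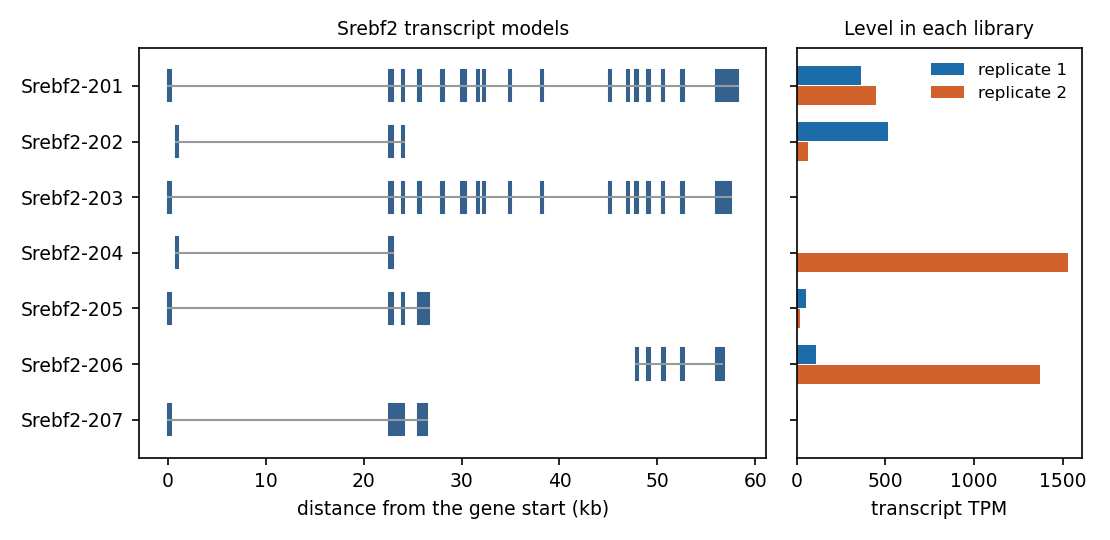
Exons of the annotated Srebf2 models against distance from the gene start in kb (left) and the TPM of each model in both libraries (right). Srebf2-201 was similar in both libraries at 360.5 and 445.3 TPM. The models Srebf2-204 and Srebf2-206 were far higher in replicate 2 on the values drawn. In the table made from the reads Srebf2-204 was at 10.9 and 221 TPM and Srebf2-206 at 202 and 230 TPM.

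Srebf1 divided over its 12 models differently. Srebf1-208, a processed transcript of the downstream start, was at 83.6 TPM in the first library and 123.1 TPM in the second. Srebf1-203, a coding model with no annotated start of its own, was at 58.1 TPM and 99.2 TPM and took 45.6% and 70.1% of the counts. The table made from the reads gave this model 4.18 TPM and 3.06 TPM, or 1.77% and 3.25% of the gene. The full-length Srebf1-201 was at 40.5 TPM and 7.43 TPM, Srebf1-207 at 12.2 TPM and 9.45 TPM, and the processed transcript Srebf1-211 at 17.0 TPM and 39.2 TPM. Models beginning at the downstream start, Srebf1-207 and Srebf1-208, summed to 95.8 and 132.5 TPM in replicates 1 and 2. The upstream start stood at 40.5 TPM and 7.43 TPM, so in TPM the downstream start was higher in both libraries, 2.37 times and 17.8 times. The table made from the reads gave 3.95 times and 11 times. In expected counts the upstream start was higher in replicate 1, at 12157 against 5915, and lower in replicate 2, at 383 against 1201. Of the coding models with a start, Srebf1-207 was below Srebf1-201 in replicate 1. In replicate 2 Srebf1-207 was above in TPM, but the deposited intervals overlapped, at 7.19 to 10.7 against 4.77 to 9.16 TPM. It was below Srebf1-201 there in expected counts, at 355 against 383. The table made from the reads also put it below in replicate 2, at 4.36 against 6.25 TPM. Srebf1-203 is in neither sum. The downstream sum rested mainly on Srebf1-208, which is not annotated as coding, and the 2 libraries differed more in the upstream than in the downstream value.

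Among the enzymes, Hmgcs1 in replicate 2 rested on few fragments. Hmgcs1-203, a 356-base partial model of 3 exons, was at 3.24 TPM on 48 expected counts in replicate 1 and at 9.3 TPM on 26 expected counts in replicate 2. The complete models Hmgcs1-201 and Hmgcs1-202 together were at 10.4 TPM on 2473 counts and 0.75 TPM on 30 counts. In the main table the complete models alone were thus below 1 TPM in replicate 2, and the M4 table, which lacks the short model, gave 11.6 TPM and 0.86 TPM. In the table made from the reads the complete models summed to 1.38 TPM in replicate 2. Fdft1-204, the coding model, was at 17.1 TPM and 6.28 TPM, and the retained-intron model Fdft1-203 at 4.5 TPM and 19.4 TPM. The M4 table, which lacks both Fdft1-204 and Fdft1-203, gave Fdft1 9.99 TPM and 7.83 TPM.

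Lss was lower in replicate 2 on its complete model too: Lss-201 was at 13.7 TPM and 2.25 TPM. Most of its TPM in replicate 1 came from Lss-202, a processed transcript of 352 bases at 48.8 TPM. In replicate 2 the table made from the reads gave Lss-202 1.28 TPM, and the main table gave it 0. Lss-205, a retained-intron model, was at 0 TPM and 6.14 TPM, the second value on 22.4 expected counts, and Lss-207 was at 0.16 TPM and 1.83 TPM. For Dhcr7, Dhcr7-202 was at 3.71 TPM and 0.62 TPM, the partial Dhcr7-203 at 6.74 TPM and 0, Dhcr7-208 at 0.12 TPM and 2.47 TPM and Dhcr7-211 at 0 and 1.25 TPM. All Dhcr7 values in replicate 2 shared 64 expected counts. In the table made from the reads, Dhcr7-208 was instead at 0 in replicate 2, and Dhcr7-202 held the largest share of the gene there, 56.1%. Lss and Hmgcs1 overlap genes annotated on the opposite strand, and the ends of Fdft1 and Srebf1 overlap Ctsb and Rai1; the use of strand, not given in the sources used here, decides whether reads could be shared.

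Over complete coding models alone, an alternative chosen after the transcript values were seen, Srebf2 was at 361.2 TPM and 445.9 TPM, 1.23-fold higher in replicate 2. Srebf1 was at 40.5 TPM and 7.43 TPM, Sqle at 33.1 TPM and 29.2 TPM, and Hmgcs1 at 10.4 TPM and 0.75 TPM. Of the 7 genes compared, 5 were then over 2-fold lower in replicate 2 and none was over 2-fold higher. Over all genes on that scale, 3840 of 9029 were lower and 962 were higher. Dhcr7 was among the 5 at 2.01-fold lower. Srebf2 remained first in order, above all others in both libraries, while each neighbouring pair in the order Sqle, Srebf1, Fdft1, Lss, Hmgcs1 and Dhcr7 had overlapping ranges. Insig1 lay below Dhcr7 with no overlap.

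Of 47 other genes of the pathway and its surroundings, 35 were detected. Of the 38 with enough counts, 2 were over 2-fold higher in replicate 2 and 15 were lower, beside 15.5% higher and 35.4% lower over all genes compared. Some genes of the pathway are not analysed here. The 7 genes of mevalonate and isoprenoid steps were all detected, with 0 higher and 3 lower. Mvk, which phosphorylates mevalonate, was at 94.97 TPM and 113.4 TPM, Fdps, which makes farnesyl diphosphate, at 40.9 TPM and 75.3 TPM, and Ggps1 lowest at 3.23 TPM and 5.59 TPM. Of 9 sterol-step genes 7 were detected, 2 were higher and 3 lower. The 2 higher ones were Cyp51, the lanosterol demethylase, at 74.7 TPM and 298.9 TPM, and Lbr, a sterol reductase of the nuclear envelope, at 78.8 TPM and 234.4 TPM. Neither was over 2-fold apart on complete coding models, where Cyp51 was at 4.97 TPM and 9.79 TPM and Lbr at 53.1 TPM and 54.7 TPM. Hsd17b7 was at 4.26 TPM and 0.54 TPM. With the 5 enzymes added, 19 of 21 synthesis genes were detected.

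Of 7 SREBP control genes 5 were detected and 1 was lower. Nr1h2, a sterol-sensing nuclear receptor, was at 543.5 TPM and 638.9 TPM and Scap, the escort of the SREBP proteins, at 123.0 TPM and 115.7 TPM, both within 2-fold. Mylip was at 0.08 TPM and 0.04 TPM. Of 9 uptake and handling genes 6 were detected and 2 were lower: Npc2, which carries cholesterol in lysosomes, at 303.4 TPM and 36.5 TPM, and Stard4, a cytosolic sterol carrier, at 43.4 TPM and 11.4 TPM. On complete coding models Npc2 was at 28.7 TPM and 12.8 TPM and Stard4 at 3.85 TPM and 4 TPM. In M4 Npc2 was at 83.3 TPM and 19.1 TPM. Lipa was listed at 0 in both. Of 5 efflux and esterification genes 2 were detected, Abcg4, an exporter, at 29.98 TPM and 31.6 TPM and Soat2, an esterifying enzyme, at 6.25 TPM and 2.1 TPM, while Soat1 was listed at 0. Of 10 fatty acid genes 8 were detected and 5 were lower. The desaturase Fads1 was at 216.6 TPM and 341.6 TPM, Fads2 at 205.6 TPM and 59.2 TPM (158.6 TPM and 80.4 TPM in M4, within 2-fold), and Scd1 at 0.22 TPM and 0.05 TPM.

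**Figure D5:**
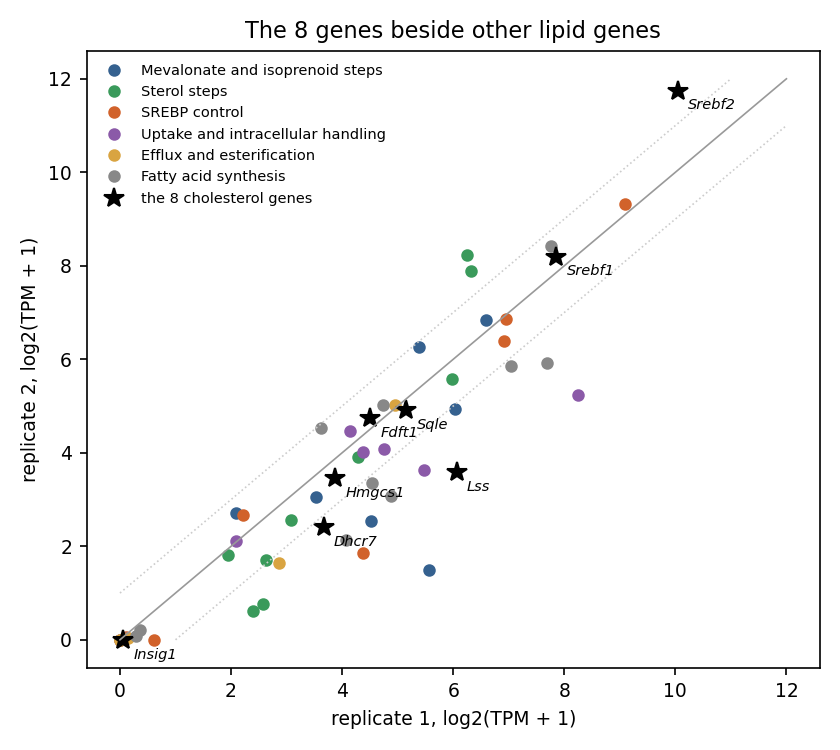
Level of the 8 genes (stars) and of 47 other pathway genes (points, coloured by list) in replicate 2 against replicate 1, as log2(TPM + 1); the solid line marks equal values and the dotted lines a 2-fold difference. Srebf2 lies above the upper dotted line, Lss and Dhcr7 lie below the lower one, and Insig1 lies at the origin.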

How the data were processed

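Polyadenylated RNA from 2 libraries of 1 group was analysed. Per the deposited file descriptions, reads were placed on mm10 and quantified against GENCODE M21 and M4 from a transcriptome alignment, and against M21 from the reads. Aligner, quantifiers and strand setting were not given in the sources used here. Expected counts, as deposited, are raw estimates of fragments per feature and need not be whole. TPM was deposited as a maximum likelihood value and as a posterior mean with interval bounds of unstated level. A deposited percent column gives transcript shares of gene TPM; the shares printed here were computed from TPM.

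The members and the lists were chosen with earlier results of these data known. Main values are from the M21 gene table. Detection needed 1 TPM in each replicate, log ratios used a pseudocount of 1, and calls needed over 2-fold in TPM and a mean expected count of 50. Intervals are at 95% and, like the floor of 3 counts, cover counting error only. Named were all 8 genes, the 2 highest and 1 lowest of each list by mean TPM, transcripts with 10% or more of their gene's TPM in either library, and coding Srebf1 transcripts; Insig2 was named after its values were seen. Similarity of pattern was not ranked, since 2 samples do not allow it. Calling was tested on simulated counts. Promoters are from RefSeq (GRCm38.p6).

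With 1 group, no test was possible. Alternatives were the M4 and read-based tables, posterior means, CPM, edgeR TMM and DESeq2 size factors used only as scalings, TPM without globins, other pseudocounts, thresholds and count minimums, each replicate alone, and, added later, complete coding transcripts. The tools were edgeR 4.0.16 and DESeq2 1.42.0 in R 4.3.3, and scipy 1.17.1, pandas 2.3.3 and matplotlib 3.10.9 in Python 3.11.15. Depth was 71485620 and 14121747 expected counts.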

Additional observations from a re-analysis of the deposited data

How the results depend on the processing

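The depth differed 5.06 times, so low values of replicate 2 carry the wider counting error, and with 1 group nothing separates library from culture. The median level of the 8 genes, 4.5 as log2(TPM + 1), was 3.92 in M4, 3.65 in the read-based table, 5.41 in CPM and 3.15 over complete coding transcripts. Their median log2 ratio, -0.15 over all 8, was -1.51 in the read-based table, -0.77 in CPM, -0.42 with TMM, -0.76 with DESeq2 size factors, -1.02 over complete coding transcripts, 0.17 with the all-gene median set to 0 and -0.34 with a pseudocount of 0.1. The count of cholesterol genes over 2-fold higher in replicate 2, 1 in the main table, was 0 in M4, the read-based table, CPM, TMM, DESeq2 size factors and complete coding transcripts. Over all genes it was 1401 of 9029 in the main table, 1381 of 8855 in M4 and 79 of 9026 in the read-based table. Of 9029 genes it was 873 in CPM, 1396 with TMM, 1556 with DESeq2 size factors and 962 over complete coding transcripts. The count of cholesterol genes lower, 2 in the main table, was 6 in the read-based table, 1 with posterior means, 4 in CPM and 5 over complete coding transcripts. Over all genes the count lower was 3199 of 9029 in the main table and 6874 of 9026 in the read-based table. Of 9029 genes it was 2773 with posterior means, 3731 in CPM and 3840 over complete coding transcripts. Calls over all genes, 4600 in the main table, numbered 6953 in the read-based table and 11998 with no count filter. The Srebf2 to Srebf1 ratio was 2.35 in M4 and 34.5 over complete coding transcripts. The log2 ratio of Srebf2 turned negative only in the read-based table as deposited, at -0.59; rescaled to equal totals it was 1.05. Fdft1 had the main direction in 6 of 12 alternatives, Srebf1 in 9 and Sqle in 11, and Lss, Hmgcs1 and Dhcr7 in 12. With each replicate alone the median level was 4.16 to 4.83 and the Srebf2 to Srebf1 ratio 4.55 to 11.7, and 7 genes were detected; M4 detected 6. No paired analysis was possible because there was only 1 group.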
